A study of Mus musculus with 7 samples.

Results

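The 10 genes described here are tied to Notch2 signalling and to marginal zone B cells and comprise the receptor Notch2, its nuclear partner Rbpj, the Notch targets Dtx1, Hes1 and Asb2, and the marginal zone or B1 cell genes Cd1d1, Cd9, Plac8, Pstpip2 and Cd36. They are represented by every probe set whose platform annotation names 1 of these genes and no other, which gave 19 of the 34945 probe sets that name a single gene, for 10 of 18193 genes. Of these 19 probe sets 16 were bright enough to be tested, at least 1 for each gene. The TG group held 3 mice of the FVB strain carrying Eu-miR-155, in which microRNA miR-155 is driven by the heavy chain enhancer Eµ and is therefore made in the B lineage; the WT group held 4 wild-type FVB mice without the transgene. In both groups B cells were separated from the spleen with a magnetic kit and hybridised to 1 array per mouse, and the labels give neither age nor sex. The authors deposited log2 values made with GCRMA, so that a step of 1 is a doubling, and levels no higher than 4 are called not above background. With so few arrays the differences are imprecise.

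Notch receptors are cut after they bind a ligand on a neighbouring cell, and the released intracellular part joins the DNA-binding protein RBPJ and Mastermind proteins to switch on target genes. In the mouse spleen NOTCH2 on B cells, engaged by the ligand DLL1 on stromal cells, is needed for the marginal zone B cell, a lineage that sits at the blood-facing edge of the follicle, displays the lipid-presenting molecule CD1d and responds early to blood-borne antigen. Follicular B cells, which carry CD23, are the other mature subset, and B1 cells are a self-renewing population that shares several surface proteins with marginal zone cells. The mature miR-155 strand is shown because it is what the transgene adds. It is given here from RefSeq (GRCm38.p6, chr16:84714143-84714165, plus strand), with its seed, bases 2 to 8, in capitals.
mmu-miR-155-5p: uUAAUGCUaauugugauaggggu

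Facts of the arrays bear on the genes below. All 7 tested B cell markers, Cd79a, Cd79b, Ms4a1, Pax5, Blk, Cd22 and Ebf1, were above background on every array, and none passed the test between the groups, but all 7 were lower in TG by 0.10 to 0.43 and 4 had an unadjusted p under 0.05. TG replicate 3 stood apart. It was below the other 6 arrays for 35.7% of the 20994 tested probe sets and above them for 21.9%, and all 7 B cell markers had their lowest value there. Xist, the non-coding RNA made from the inactive X chromosome, read 13.61 to 13.93 on 5 arrays, the 3 TG arrays among them, but 2.22 and 2.81 on WT replicates 3 and 4, so its level is not balanced between the groups. Several markers of other blood cells were higher in TG. Of natural killer cell markers 4 of 5 tested passed as higher, with summed log2 levels of 9.20 to 11.16 in TG and 7.06 to 7.61 in WT. Of blood progenitor markers 4 of 4 passed (9.76 to 11.92 in TG and 7.26 to 7.65 in WT), of dendritic cell markers 3 of 4 (9.20 to 10.92 in TG and 7.24 to 7.72 in WT), and of erythroid markers 3 of 4, with overlapping sums (10.39 to 11.75 in TG and 10.64 to 10.89 in WT). The natural killer genes that passed, Klrk1, Klrd1, Gzma and Nkg7, were not above background on any WT array. The same held for the erythroid genes Klf1, Car1 and Slc4a1, the progenitor gene Cd34 and the dendritic cell gene Xcr1. The progenitor gene Kit was above background on 2 WT arrays, fewer than the 3 arrays needed to be tested. All of these genes could be tested only by being high in TG, so the counts only describe levels. Of all tested genes 8.11% passed as higher, a share that includes such genes. Granulocyte, platelet and plasma cell markers are given beside the genes they bear on. In such bulk samples fewer cells of a type and less RNA per cell cannot be told apart.

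Asb2 and Plac8 were higher in TG B cell isolates, and neither Notch2 nor Rbpj, Dtx1 and Hes1 passed the test in either direction. Pstpip2 was above background on the TG arrays alone, so that it could enter the test only by being higher there, and it is described below without being counted. Of the other 15 tested probe sets 2 passed as higher, against 4.97% of the 20787 tested probe sets above background on at least 1 array of each group, and 0 passed as lower, against 3.65%. By gene this was 2 of 9, against 7.15% of genes. These backgrounds still hold probe sets above 4 on only 1 or 2 WT arrays, which entered the test through TG arrays. By limma 4 of the 15 had an unadjusted p under 0.05, all of them higher in TG. The TG and WT values did not overlap for the same 4, those of Asb2, Cd1d1 (1 of its 2 probe sets), Cd9 and Plac8, against 13.4% without overlap and higher. The share of all tested probe sets with an unadjusted p under 0.05 was not counted. Counts by unadjusted p, for these genes and for the other lists and markers, therefore have no background beside them and are description only. The median difference of the 9 genes, each by its brightest probe set, was 0.15, beside 0.00 over all genes above background in both groups. With all tested probe sets as the background, Pstpip2 and its like included, 5.63% were higher. Without TG replicate 3 Asb2 and Plac8 passed, against 4.79% of all tested probe sets and 6.81% of genes higher. Without both WT replicates 3 and 4, which leaves 2 WT arrays, 0 of the 15 passed by limma, 3 had an unadjusted p under 0.05, all higher in TG, and 0.0667% of all tested probe sets passed as higher.

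**Figure D1:**
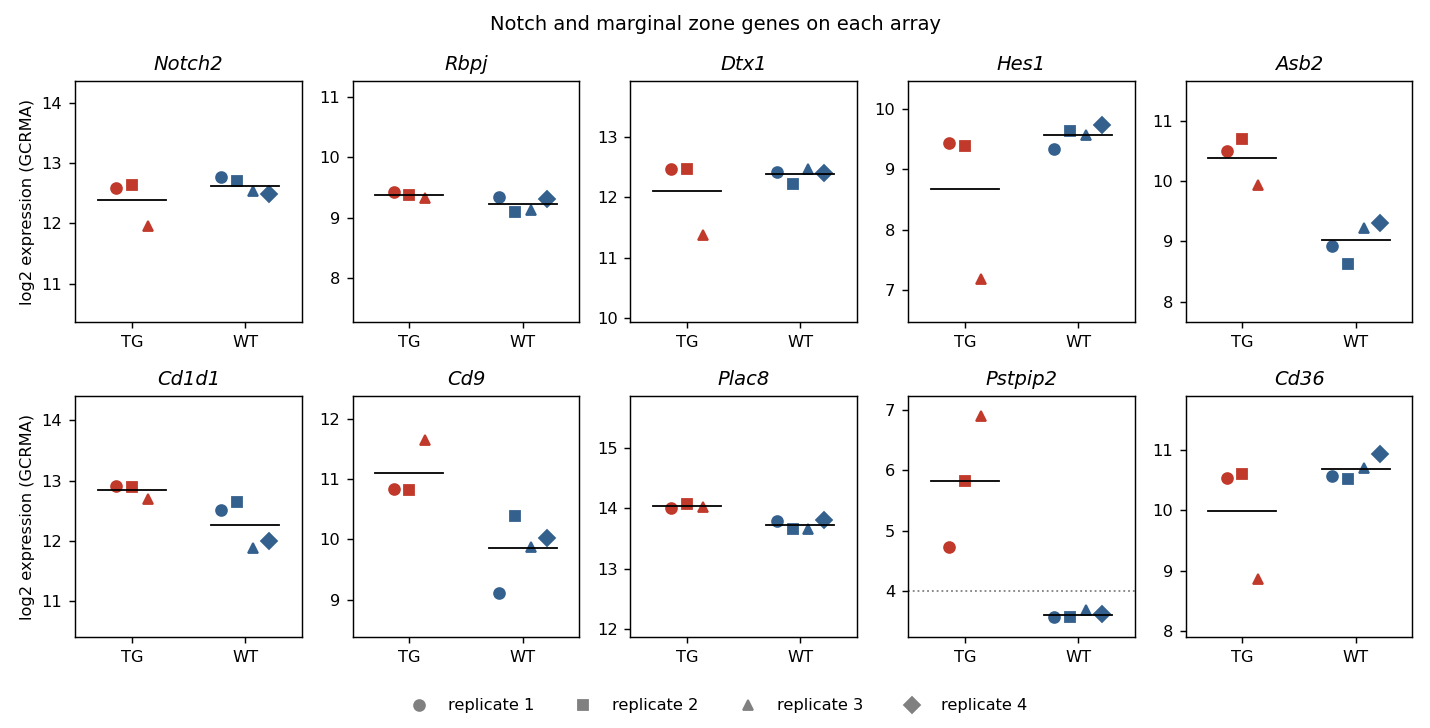
Log2 expression (GCRMA) of the 10 genes, each by its brightest probe set, on 3 TG arrays (red, left) and 4 WT arrays (blue, right); black lines are group means, marker shapes give the replicate, every panel spans the same range of log2 units, and the dotted line in the Pstpip2 panel is the background level of 4. Notch2, Dtx1, Hes1 and Cd36 have their lowest value on TG replicate 3, while all 3 TG values of Asb2, Cd1d1, Cd9, Plac8 and Pstpip2 lie above all 4 WT values.

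Notch2, the receptor, had values of 12.59, 12.64 and 11.95 on the TG arrays, against 12.77, 12.70, 12.54 and 12.49 on the WT arrays. TG replicates 1 and 2 lay within the WT range and TG replicate 3 lay below it, by 0.68 from the WT mean. The means were 12.39 ± 0.38 (SD, n = 3) in TG and 12.63 ± 0.13 (SD, n = 4) in WT, a difference of -0.23 (95% confidence interval -0.65 to 0.19, limma adjusted p = 0.399). Without TG replicate 3 the difference was -0.01 (adjusted p = 0.956). The other Notch2 probe set was at the lowest value of the table, 2.17, on all 7 arrays and was not tested.

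Rbpj, which encodes the DNA-binding partner of all Notch receptors, was above background with 3 probe sets, and none passed. The brightest read 9.43, 9.38 and 9.33 on the TG arrays, against 9.35, 9.10, 9.14 and 9.32 on the WT arrays, so that the groups overlapped narrowly. Its difference was 0.15 (95% confidence interval -0.04 to 0.34, limma adjusted p = 0.242). The other 2 differed by 0.22 and 0.21, with adjusted p = 0.228 and 0.328, and both had their highest value on TG replicate 3, at 8.15 and 7.52. An Rbpj difference above 0.54 on the log2 scale lies outside the interval of each of the 3 probe sets.

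Dtx1 encodes Deltex1, a ubiquitin ligase that is a Notch target and is abundant in marginal zone B cells. Its brighter probe set read 12.47, 12.46 and 11.38 on the TG arrays, against 12.42, 12.23, 12.47 and 12.40 on the WT arrays. TG replicates 1 and 2 stood at the upper end of the WT range or just past it, and TG replicate 3 lay 1.00 below the WT mean. The difference was -0.27 (95% confidence interval -0.92 to 0.37, limma adjusted p = 0.512), and without TG replicate 3 it was 0.09 (adjusted p = 0.480), so 1 array set its sign. The dimmer Dtx1 probe set read 7.55, 7.44 and 6.52 on the TG arrays, against 7.23, 7.23, 6.78 and 7.23 on the WT arrays, and differed by 0.05 (adjusted p = 0.912). Both probe sets had their lowest value on TG replicate 3.

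Hes1, a repressor that is a Notch target in many tissues, had the widest spread of the Notch genes among TG arrays. It read 9.44, 9.39 and 7.19 on the TG arrays, against 9.33, 9.64, 9.57 and 9.74 on the WT arrays. TG replicates 1 and 2 were within the WT range, while TG replicate 3 was 2.38 below the WT mean. The difference of -0.90 (95% confidence interval -2.21 to 0.41, limma adjusted p = 0.307) was -0.15 without that array (adjusted p = 0.456).

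Asb2, which encodes the substrate subunit of a ubiquitin ligase and is a Notch target in blood cells, rose in TG B cell isolates. It read 10.49, 10.69 and 9.94 on the TG arrays, against 8.92, 8.62, 9.23 and 9.30 on the WT arrays. Every TG value was above every WT value, with TG replicate 3 the nearest to WT. The means were 10.37 ± 0.39 (SD, n = 3) in TG and 9.02 ± 0.31 (SD, n = 4) in WT, a difference of 1.36 ± 0.23 (SE), or 2.56-fold, with a limma adjusted p of 0.0244. Without TG replicate 3 the difference was 1.57 (adjusted p = 0.0176), and against WT replicates 1 and 2 alone it was 1.60 (adjusted p = 0.118). The call was also lost without TG replicate 2 (adjusted p = 0.0922) or without WT replicate 1, 2, 3 or 4 (adjusted p = 0.0635, 0.0678, 0.0574 and 0.0517), with differences of 1.20 to 1.45. With no filter on level or the replicate block it was lost too (limma adjusted p = 0.0907 and 0.171), so Asb2 passed in 11 of 19 alternatives. Granulocyte markers were at 13.94 to 14.96 in TG and 6.44 to 8.06 in WT, and natural killer cell markers stood as given above. TG replicate 3, where both sums were highest, had the lowest of the 3 TG values of Asb2, and the part of other cells in its rise was not tested. Whether the rise of Asb2 differs from the values of Dtx1 and Hes1 was not tested.

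RBPJ binds DNA at sites with the core TGGGAA, and this core and its reverse complement TTCCCA were looked for in the RefSeq promoter windows, which run from 250 bases before to 50 after a start site (GRCm38.p6). The search covered 10 windows for 7 of the genes, Notch2, Rbpj, Dtx1, Asb2, Cd9, Plac8 and Cd36. Hes1, Cd1d1 and Pstpip2 were not searched. Of the 10 windows 5, of the 4 genes Rbpj, Cd9, Plac8 and Cd36, held the core, beside 25.6% of all 32851 windows. The Rbpj windows overlap and share the same TTCCCA, which is thus counted in each of them. Whether the share of windows differs from that of all windows was not tested. Shown are both windows of Asb2, the Notch target that passed, which do not hold these letters, and that of Cd36. Of the genes searched, Cd36 had the core nearest upstream of its start site, at position -43 counted from the start, on the strand printed. All 3 windows are on the minus strand and are written 5′ to 3′ along the gene, with the core in capitals. A match is a description of the letters and not a measured site, and these windows leave out distant enhancers.
Asb2, chr12:103355952-103356251: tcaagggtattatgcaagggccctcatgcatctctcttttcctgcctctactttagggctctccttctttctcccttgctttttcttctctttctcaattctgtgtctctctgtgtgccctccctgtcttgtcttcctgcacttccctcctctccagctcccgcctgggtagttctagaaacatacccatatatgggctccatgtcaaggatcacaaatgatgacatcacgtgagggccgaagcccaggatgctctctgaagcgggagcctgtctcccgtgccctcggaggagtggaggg
Asb2, chr12:103338341-103338640: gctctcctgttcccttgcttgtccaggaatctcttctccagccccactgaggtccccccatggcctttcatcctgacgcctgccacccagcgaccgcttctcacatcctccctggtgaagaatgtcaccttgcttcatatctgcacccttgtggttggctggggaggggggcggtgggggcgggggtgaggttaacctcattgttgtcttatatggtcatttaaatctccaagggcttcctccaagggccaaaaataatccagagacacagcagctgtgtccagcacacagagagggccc
Cd36, chr5:17835847-17836146: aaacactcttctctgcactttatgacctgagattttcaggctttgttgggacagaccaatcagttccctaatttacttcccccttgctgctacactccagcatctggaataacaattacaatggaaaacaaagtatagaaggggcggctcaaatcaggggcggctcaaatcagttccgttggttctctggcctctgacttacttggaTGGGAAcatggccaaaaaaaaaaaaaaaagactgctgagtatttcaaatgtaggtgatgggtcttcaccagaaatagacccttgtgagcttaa

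Cd1d1 encodes the CD1d molecule that presents lipids to natural killer T cells and that marginal zone B cells display at a high level. Its brighter probe set read 12.92, 12.89 and 12.70 on the TG arrays, against 12.52, 12.65, 11.89 and 12.00 on the WT arrays. All TG values were above all WT values, and the WT values fell in pairs, replicates 1 and 2 above replicates 3 and 4 by 0.64, the division that Xist also shows. The difference was 0.57 ± 0.20 (SE, limma adjusted p = 0.121), and against WT replicates 1 and 2 alone it was 0.25 (adjusted p = 0.246). The other probe set overlapped between the groups, with a lowest TG value of 11.98 and a highest WT value of 12.08, and had a difference of 0.55 (adjusted p = 0.198) from all WT arrays and 0.14 (adjusted p = 0.482) from WT replicates 1 and 2, which stood 0.80 above replicates 3 and 4. The mouse has a near-identical copy, Cd1d2, and probes of either set may also detect it, so the signal is uncertain between the copies.

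Cd9 encodes a tetraspanin of marginal zone, B1 and plasma cells that platelets also carry in quantity. It read 10.84, 10.82 and 11.65 on the TG arrays, against 9.10, 10.39, 9.88 and 10.02 on the WT arrays. The groups did not overlap, and WT replicate 1 was the lowest and TG replicate 3 the highest of all. The difference was 1.25 ± 0.34 (SE, limma adjusted p = 0.0691) and did not pass. It was 0.98 without TG replicate 3 and 1.00 without WT replicate 1. Platelet and megakaryocyte markers also had WT replicate 1 lowest and TG replicate 3 highest. Their summed level, the log2 of the sum over 7 genes, was 13.26, 13.29 and 14.09 on the TG arrays, against 10.02, 11.98, 11.46 and 11.62 on the WT arrays, and 2 of the 6 tested, Pf4 and Gp9, passed as higher, 4 did not pass, and Gp6 was not above background on any array. Plasma cell markers had sums of 14.58, 14.77 and 15.35 on the TG arrays, against 13.55 to 14.04 on the WT arrays. Of 5 tested 1, Jchain, passed as higher by limma (1.91, adjusted p = 0.0323), against 8.11% of all tested genes. The other 4 did not pass, with Irf4 lower (-0.38, adjusted p = 0.0719). The part of platelets and of plasma cells in the difference of Cd9 was not tested.

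**Figure D2:**
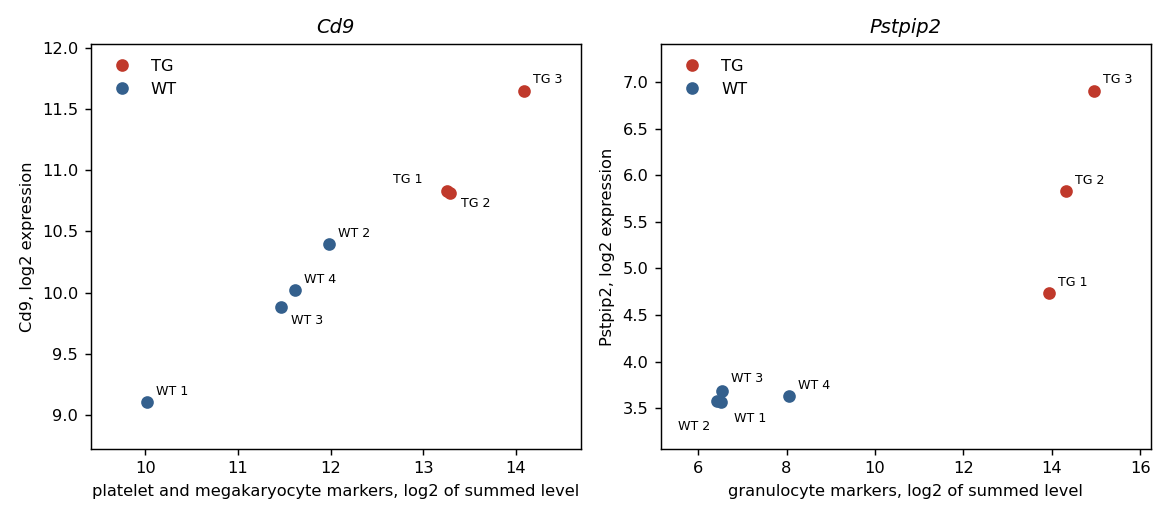
Log2 expression of Cd9 (left) and Pstpip2 (right) against the log2 of the summed level of platelet and megakaryocyte markers or of granulocyte markers, 1 point per array, TG in red and WT in blue. Cd9 is lowest at WT replicate 1, where platelet markers are at 10.02, and highest at TG replicate 3, where they are at 14.09; Pstpip2 is above 4 on the 3 TG arrays, where granulocyte markers are between 13.94 and 14.96.

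Cd36 encodes a scavenger receptor and fatty acid carrier found on marginal zone B cells, platelets, macrophages and other cells. The brightest of its 3 probe sets read 10.54, 10.60 and 8.86 on the TG arrays, against 10.58, 10.53, 10.71 and 10.94 on the WT arrays. TG replicates 1 and 2 were within the WT range, and TG replicate 3 was 1.83 below the WT mean. The difference was -0.69 (95% confidence interval -1.70 to 0.33, limma adjusted p = 0.312), and -0.12 without TG replicate 3 (adjusted p = 0.583). The other probe sets differed by -0.69 and -0.66 and likewise had TG replicate 3 lowest, at 7.95 and 2.32. The last read 3.94 to 4.54 on the other arrays, near the background level of 4, and lay under that level on TG replicate 3. With values under 4 set at 4 its difference was -0.115 (limma adjusted p = 0.574). TG replicate 3 was thus the lowest array for Cd36 and the highest for Cd9 and for the platelet marker sum.

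Plac8 encodes a small cysteine-rich protein of lymphoid and myeloid cells. It read 14.01, 14.08 and 14.02 on the TG arrays, against 13.80, 13.65, 13.65 and 13.81 on the WT arrays. The TG values lay close together and all above the WT values. Plac8 rose by 0.31 ± 0.05 (SE, limma adjusted p = 0.0253), or 1.24-fold, and without TG replicate 3 by 0.32 (adjusted p = 0.0464). Its difference stayed between 0.28 and 0.34 over all alternatives, but it passed by limma in only 11 of 19. The call was lost without TG replicate 2 (adjusted p = 0.0954) and without WT replicate 2 or 3 (adjusted p = 0.0730 and 0.0633). It was lost without both WT replicates 3 and 4 (adjusted p = 0.132) and without both TG replicate 3 and WT replicate 4 (adjusted p = 0.0677). The Xist covariate, no filter on level and the replicate block also lost it (adjusted p = 0.0899, 0.0861 and 0.164).

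Pstpip2 encodes an adaptor protein that bends membranes and restrains inflammation in macrophages and neutrophils. It read 4.74, 5.83 and 6.91 on the TG arrays, against 3.56, 3.57, 3.69 and 3.63 on the WT arrays. No WT array was above background, so the probe set entered the test only through the TG arrays, and its fold is a lower bound. Pstpip2 was at least 3.54-fold higher in TG, the TG mean against a level of 4. Its limma adjusted p of 0.0357 is not counted as a call, since it had to be high in TG to be tested, and with values under 4 set at 4 the difference was 1.82 (adjusted p = 0.0568). Its other 2 probe sets were not above background on any array. Granulocyte markers stood beside it: their summed level over 10 genes was 13.94, 14.31 and 14.96 on the TG arrays, against 6.53, 6.44, 6.55 and 8.06 on the WT arrays, 6 of 7 tested passed as higher, and 6 of the 10 were not above background on any WT array. Of those that passed, Ctsg, S100a8 and S100a9 were not above background on any WT array. Mpo and Prtn3 were above it on 1 WT array each, fewer than the 3 arrays needed to be tested. All of these genes could be tested only by being high in TG. Monocyte and macrophage markers had sums of 11.30 to 12.21 in TG and 9.67 to 11.88 in WT, with Cd68 higher, Spic lower and 3 of 5 tested not passing; C1qc, Cd14 and Fcgr1 were not above background on any array. The part of these cells in the values of Pstpip2 and Plac8 was not tested.

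**Figure D3:**
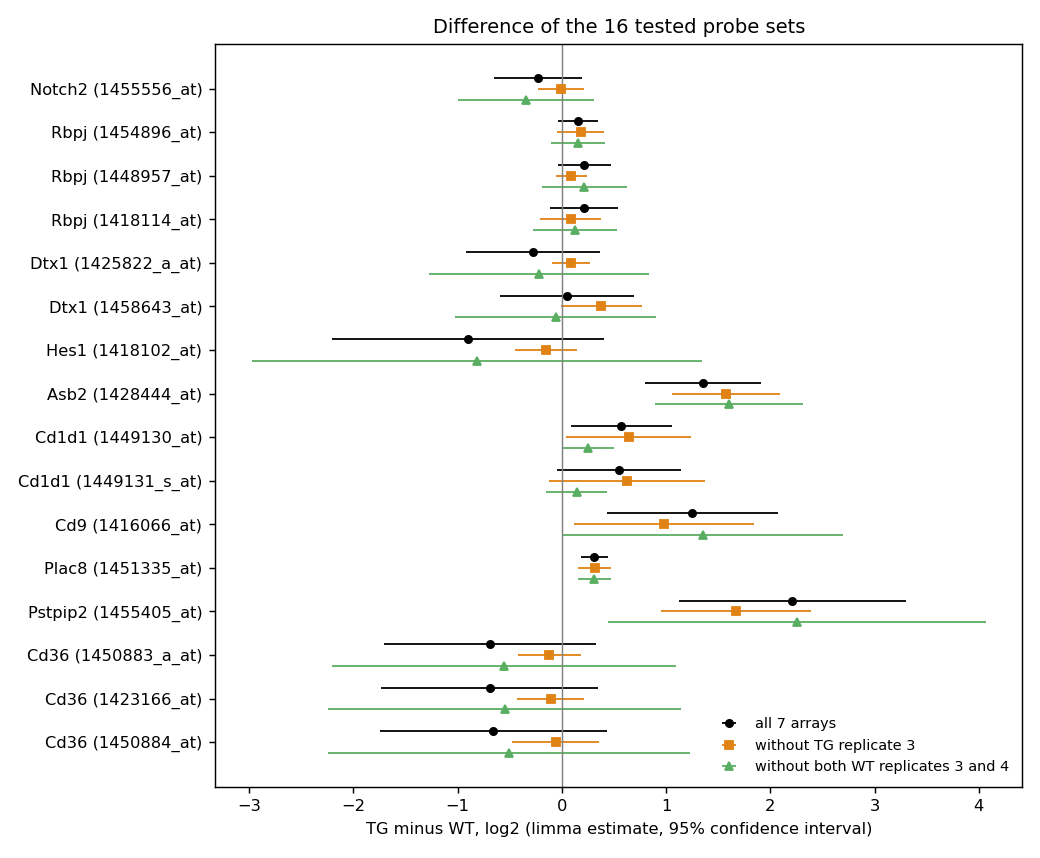
Difference between TG and WT (log2, limma estimate with its 95% confidence interval) for the 16 tested probe sets, with all 7 arrays (black circles), without TG replicate 3 (orange squares) and without both WT replicates 3 and 4 (green triangles). The estimates of Asb2, Plac8 and Pstpip2, and of Cd9, Cd1d1 and Rbpj, which did not pass, stay above 0 in all 3 settings. Those of Notch2, Hes1 and Cd36 lie below 0 and nearest to 0 without TG replicate 3.

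Of the 16 tested probe sets 7, those of Notch2, Dtx1, Hes1 and Cd36, had their lowest value on TG replicate 3, a share of 43.8% beside 35.7% of all tested probe sets, which is near that background. Sizes differed: relative to the WT mean, that array was lower by 2.38 for Hes1, 1.83 for Cd36, 1.00 for Dtx1 and 0.68 for Notch2, and by 0.17 for Ms4a1 to 0.78 for Pax5 among the B cell markers. Of the 11 other marginal zone genes 6 were lowest and 3 highest on TG replicate 3. Itgb1 and Itgb2 were 1.68 and 0.90 above the WT mean there. Among the 6 lowest, S1pr3, a sphingosine phosphate receptor that holds cells in the marginal zone, read 11.76, 11.74 and 9.47 on the TG arrays, against 11.37, 11.17, 11.70 and 11.53 on the WT arrays. Cr2, which encodes the complement receptor CD21, read 13.77, 13.75 and 13.10 in TG, against 14.00, 14.18, 14.08 and 14.07 in WT. Of the 6 tested Notch targets and Deltex relatives 4 (66.7%) were lowest on that array, Hes5 and Nrarp, at 6.32 and 6.43, and Dtx2 and Dtx4. Another, Dtx3l, was highest there, at 9.50. On TG replicate 3 the summed T cell markers were at 12.19, against 6.67 and 7.39 on the other TG arrays and 6.37 to 6.47 on the WT arrays, and the summed B cell markers were at 16.30, against 16.71 on both other TG arrays and 16.76 to 16.85 on the WT arrays. The part of cell makeup in these values was not tested.

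**Figure D4:**
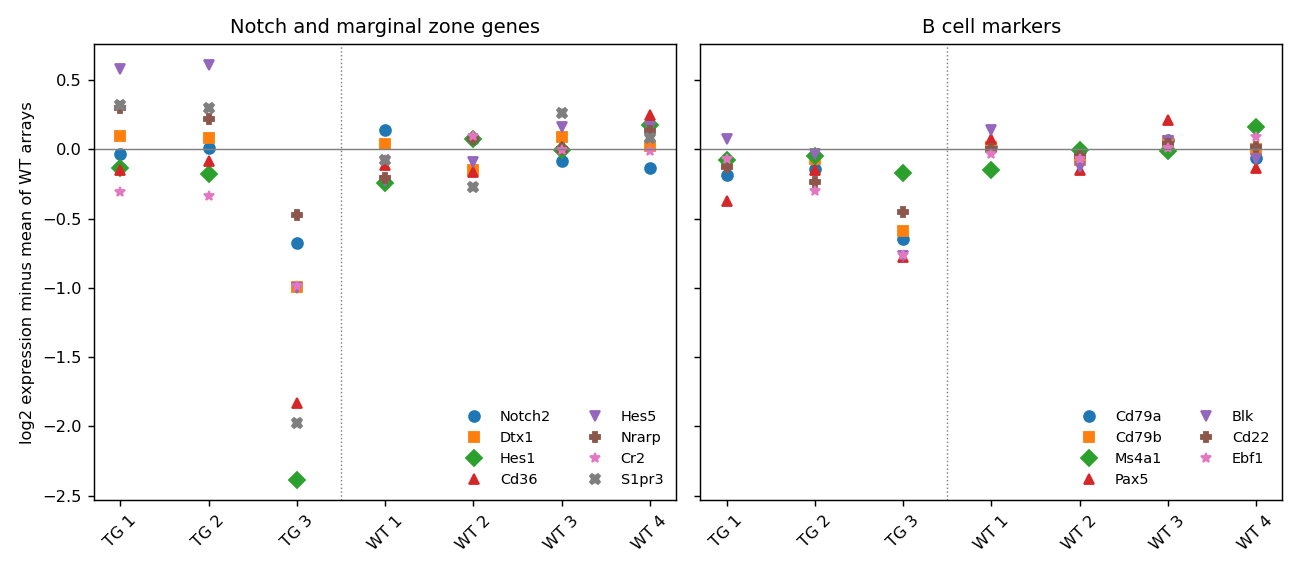
Log2 expression minus the mean of the WT arrays for Notch and marginal zone genes (left) and B cell markers (right), on the 3 TG arrays and then the 4 WT arrays, 1 symbol per gene. On TG replicate 3 the left panel reaches -2.38 for Hes1 and -1.98 for S1pr3, and the right panel reaches -0.78 for Pax5. The left panel shows only Notch2, Dtx1, Hes1, Cd36, S1pr3, Cr2, Hes5 and Nrarp, all lowest on that array. Genes above the WT mean there, among them Cd9 (1.80), Itgb1 (1.68) and Notch1 (1.15), are not drawn, so the panel does not show the lists as a whole.

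The genes whose pattern over the 7 arrays was nearest to that of Notch2 were Entpd6, Atg5, H2bc21, Ppdpf and Gimap7. The measure was the root mean square difference between profiles, each centred on its own mean, which was 0.05, 0.05, 0.05, 0.06 and 0.06 log2 units over 7 arrays. Each had TG replicate 3 as its lowest array, and their differences between the groups lay between -0.29 and -0.21 with adjusted p of 0.276 to 0.463.

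Outside the 10 genes 2 genes of the Notch pathway, Poglut1 and Dtx3, passed the test, both higher in TG, which is 2 of 32 tested (6.25%) beside 8.11% of all tested genes higher. Among receptors and ligands 2 of 8 measured genes were bright enough to be tested and 0 passed by limma, and neither had an unadjusted p under 0.05. The receptor Notch1 read 9.09, 8.82 and 9.95 on the TG arrays, against 8.99, 8.85, 8.68 and 8.67 on the WT arrays, a difference of 0.49 (adjusted p = 0.257) that was 0.16 without TG replicate 3. The ligand Dll1 differed by -0.25 (adjusted p = 0.407), and Notch3, Notch4, Dll3, Dll4, Jag1 and Jag2 were not above background on any array. Of 17 tested genes of Notch cleavage, sugar modification and trafficking 1 was higher and 0 lower, with a median difference of -0.10. It was Poglut1, the enzyme that adds glucose to Notch, which rose by 0.36 ± 0.07 (SE, adjusted p = 0.0367), and by 0.43 without TG replicate 3 (adjusted p = 0.0192). Of the others, Mib1 (0.62) was higher and Lfng, Psen2 and Adam17 (-0.35, -0.44 and -0.13) were lower with an unadjusted p under 0.05. None of these passed by limma (adjusted p = 0.152, 0.137, 0.161 and 0.165). Psenen, a subunit of the protease that makes the second cut and the member of highest level, differed by -0.10 (adjusted p = 0.511). The metalloprotease Adam10, which makes the first cut in the activated receptor, differed by -0.12 (adjusted p = 0.326). Among 7 tested nuclear partners 0 passed by limma in either direction, with a median of -0.15, and 1 had an unadjusted p under 0.05. This was Fbxw7, which targets the active receptor for destruction and differed by 0.27 (adjusted p = 0.0727). Snw1, a cofactor and the member of highest level, differed by 0.09 (adjusted p = 0.305).

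Of 6 tested Notch targets and Deltex relatives 1 was higher and 0 lower, with a median difference of 0.04. Dtx3 rose by 0.63 ± 0.14 (SE, adjusted p = 0.0422), reading 7.84, 8.27 and 8.05 on the TG arrays against 7.51, 7.19, 7.62 and 7.41 on the WT arrays, and did not pass without TG replicate 3 (0.63, adjusted p = 0.0838). Hes5 read 7.90, 7.93 and 6.32 on the TG arrays, against 7.09, 7.23, 7.48 and 7.48 on the WT arrays. Thus 2 TG arrays were above and 1 below every WT array, and the difference was 0.07 with all arrays (adjusted p = 0.931) and 0.60 without TG replicate 3 (adjusted p = 0.0555). Dtx3l, the member of highest level, differed by 0.17 (adjusted p = 0.547). Hey1, Hey2 and Heyl were not above background on any array.

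Of the B cell subset genes Itgb1 was higher, and the follicular genes Fcer2a, Icosl and Foxo1 were lower. Of 11 tested marginal zone genes 1 was higher (9.09%, near the 8.11% of all tested genes) and 0 lower, with a median of -0.11: Itgb1, the integrin chain that helps retain cells in the marginal zone and that many other blood cells carry, rose by 1.14 ± 0.23 (SE, adjusted p = 0.0329). It read 9.71 to 10.67 on the TG arrays, against 8.77 to 9.19 on the WT arrays, without overlap. Natural killer cell, progenitor, granulocyte and platelet marker sums also had TG replicate 3 highest, and their part in Itgb1 was not tested. Without TG replicate 3 the counts were 2 higher and 1 lower, since Mzb1, an endoplasmic reticulum protein of antibody-secreting B cells, passed as higher (0.35, adjusted p = 0.0466) and Cr2 as lower (-0.32, adjusted p = 0.0305). Without that array 2.0% of all tested genes were lower. With all arrays Cr2 differed by -0.54 (adjusted p = 0.0896) and Mzb1 by 0.16 (adjusted p = 0.506). Fcmr, the Fc receptor for IgM and the member of highest level, differed by -0.29 (adjusted p = 0.0646). Of 7 tested follicular genes 3 were lower and 0 higher, against 2.56% of all tested genes lower, with a median of -0.67. Fcer2a, encoding CD23, fell by 0.82, reading 12.54, 12.46 and 11.82 on the TG arrays against 12.91, 13.00, 13.21 and 13.23 on the WT arrays (adjusted p = 0.0451). Icosl, encoding a ligand for T cell help, and Foxo1, a transcription factor of resting lymphocytes, fell by 0.53 and 0.55 (adjusted p = 0.0235 and 0.0298). Cxcr5, the follicle-homing receptor and the member of highest level, differed by -0.24 (adjusted p = 0.402). Without TG replicate 3 the follicular count was 4, with Cd55 (-0.84, adjusted p = 0.00843) added, and the median was -0.44. Without both WT replicates 3 and 4, 0 of these 50 other Notch, marginal zone and follicular genes passed by limma, where 0.126% of all tested genes did, and 6 higher and 5 lower had an unadjusted p under 0.05.

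**Figure D5:**
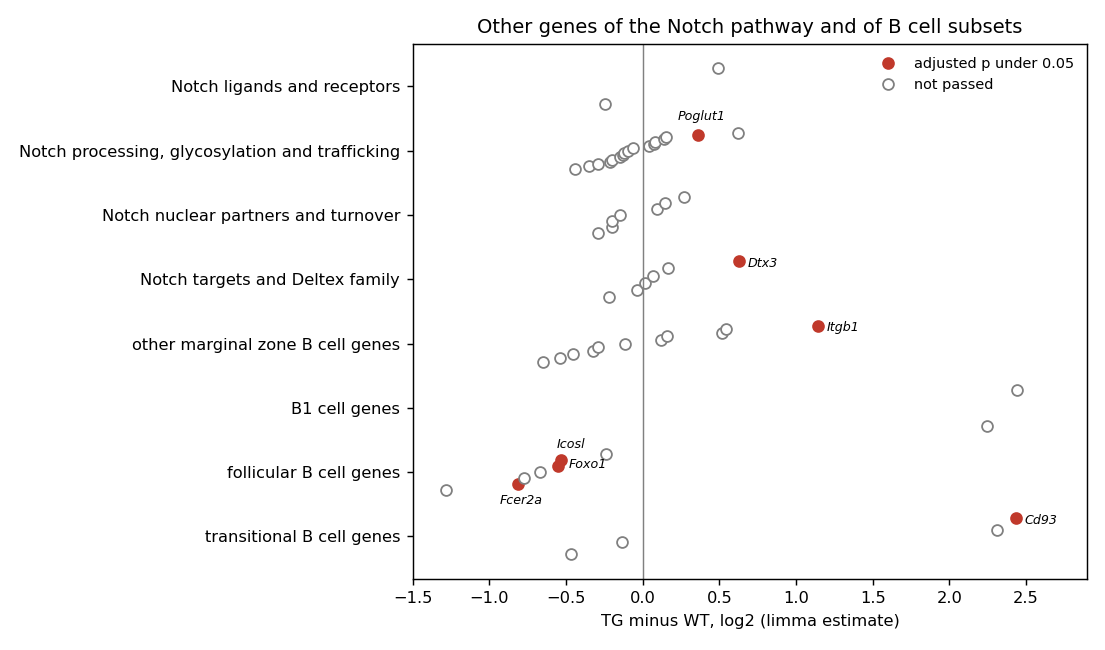
Difference between TG and WT (log2, limma estimate) of each tested gene in lists of Notch pathway and B cell subset genes, 1 row per list; filled red circles passed an adjusted p under 0.05 and open circles did not. Passing genes in the Notch rows are Poglut1 at 0.36 and Dtx3 at 0.63, and the 7 follicular genes all lie below 0.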

How the data were processed

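Gene expression was measured on 1 array per mouse in splenic B cells, 3 TG and 4 WT samples, grouped by their titles. The deposited log2 values were made by the authors with GCRMA (no version stated), per the submitters' processing notes. The method models background from probe composition, and many dim probe sets sit at or near the lowest value of 2.17. Differences of dim genes are therefore uncertain in size, and between 4.0% and 8.0% of tested values were identical between any 2 arrays. Probe sets were named from GEO's platform annotation, and 34741 symbols were looked up in RefSeq (GRCm38.p6), which changed 0. Of 45101 probe sets, 64 controls were left out, and the 20994 above 4 on at least 3 of the 7 arrays were tested with limma 3.58.1 in R 4.3.3 (lmFit, eBayes with an intensity trend, Benjamini-Hochberg over all tested probe sets, adjusted p under 0.05). A gene stands by its probe set of highest mean.

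All 10 genes are named, with up to 4 passing genes of each list by smallest p, its member of highest level, the 5 genes nearest to Notch2 and a few others for their role, chosen after their values were seen. The members and lists were chosen with earlier results of these data known. The procedure was tested on simulated data. Alternatives changed the filter, scaling, floor, variance model, array weights and arrays used, added Xist as a covariate, or took the replicate number as a block. Nothing shows that same-numbered samples pair, since their deviations from the group means correlated at -0.287 to -0.043. No batch is given in the labels. Figures were drawn with matplotlib 3.10.9.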

Additional observations from a re-analysis of the deposited data

Results flagged for a closer look

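In 2 of the 16 WT groups checked, 1 array lay far from the other 3 relative to the group's range; chance flags about 1 in 20 groups. The dimmest Rbpj probe set was at 6.80 on WT replicate 3 and at 7.14 on the other 3 WT arrays, and the dimmer Dtx1 probe set was at 6.78 on WT replicate 3 and at 7.23 on the other 3. In both the other 3 arrays held the same value, so the gap was the whole range, and 7.14 was also the Rbpj value of TG replicates 1 and 2. The TG group, with 3 arrays, was not checked.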

How the results depend on the processing

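The number of member probe sets that passed as higher, 3 with all arrays when Pstpip2 is counted and 2 over those above 4 in both groups (chosen after seeing the data), was 0 with no filter on level, 0 with the replicate block, 0 without both WT replicates 3 and 4, 1 with the Xist level as a covariate and 1 without both TG replicate 3 and WT replicate 4; leaving out 1 array gave 0 to 3, with 0 without TG replicate 2 or WT replicate 2 or 3 and 1 without WT replicate 1 or 4. None passed as lower in any of these fits. Over all tested probe sets, where 1182 were higher and 767 lower, the counts were 152 and 47 with no filter, 2960 and 2985 with array weights, whose estimation stopped before convergence, 4 and 0 with the replicate block, which also leaves out WT replicate 4, 194 and 83 with Xist, 14 and 1 without both WT replicates 3 and 4, and 494 and 193 without both TG replicate 3 and WT replicate 4. Leaving out 1 array gave 121 to 1249 higher and 17 to 900 lower, the lowest without TG replicate 2. The cause of these changes was not tested, beyond the smaller number of arrays or larger number of probe sets tested that some settings bring. The sign turned in 10 of 302 refits of single member probe sets, none of them called. The brighter Dtx1 probe set was at 0.082 with array weights, 0.089 without TG replicate 3 and 0.097 without both TG replicate 3 and WT replicate 4, within -0.456 to 0.097 over the fits with arrays left out. The dimmer one was at -0.004 with quantile normalization, -0.137 and -0.083 without TG replicate 1 or 2, -0.060 without WT replicate 3 or without both WT replicates 3 and 4, and -0.062 with Xist, within -0.137 to 0.418 with arrays left out. The near-background Cd36 probe set was at 0.062 without both TG replicate 3 and WT replicate 4, within -0.957 to 0.062 with arrays left out. Cd9 passed in 2 of 19 alternatives, with quantile normalization and array weights (adjusted p = 0.0482 and 0.0466). Same-numbered TG and WT samples did not deviate together (r = -0.043, -0.142 and -0.287), so nothing shows that the block removes shared variation. Why its calls were lost was not tested. Levels near 2.17 carry no order. Pstpip2 read 3.56 to 3.69 in WT, above that floor but under the background level of 4, which limits its difference.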

Other observations

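Genes of B1 and of transitional B cells were described beside the marginal zone genes. Of 7 B1 cell genes 2 were bright enough to be tested and 0 passed by limma, though both had an unadjusted p under 0.05. Spn, which encodes CD43, a sialoprotein of B1 cells, T cells and granulocytes, was at 8.62 ± 1.36 (SD, n = 3) in TG and 6.17 ± 0.54 (SD, n = 4) in WT (adjusted p = 0.0607), and Plscr1 at 7.17 and 4.93 (adjusted p = 0.0795). Cd5, Zbtb32, Bhlhe41, Itgam and Ctla4 did not enter the test. Of 4 transitional B cell genes 1 was higher and 0 lower, against 8.11% of all tested genes higher, and the count was 0 without TG replicate 3, without both WT replicates 3 and 4, and with values under 4 set at 4. Cd93, which marks immature B cells and also blood progenitors and phagocytes, rose by 2.43 ± 0.58 (SE, adjusted p = 0.0493), reading 8.10, 8.77 and 10.23 on the TG arrays, against 5.81, 6.28, 6.91 and 7.40 on the WT arrays; without TG replicate 3 it did not pass (1.84, adjusted p = 0.0794). Cd24a, the member of highest level, differed by -0.14 (adjusted p = 0.322). Vpreb3, a B lineage gene of the endoplasmic reticulum, differed by -0.47 (adjusted p = 0.517) and stood 1.72 below the WT mean on TG replicate 3. Blood progenitor markers, summed over 7 genes, were at 9.76, 10.25 and 11.92 on the TG arrays, against 7.26 to 7.65 on the WT arrays, and their part in Cd93 was not tested.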
